A study of Mus musculus with 8 samples.

Results

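The replication-dependent histone genes were examined in AML12 cells, an immortal line of hepatocytes taken from mice with a TGFα transgene, after exposure to a weak magnetic field. Members were the genes whose symbol followed either naming scheme for these genes, the older one that starts with Hist1h to Hist4h or the newer one that starts with H2ac, H2bc, H3c, H4c or H1f with a digit of 1 to 5, leaving out symbols marked as pseudogenes. The deposited tables mixed the schemes, so 9 members came under older symbols and 57 under newer symbols, which made 66 of the 55401 genes listed. In GENCODE M21, a mouse gene annotation on the GRCm38 (mm10) genome, 65 of the 66 carried an older-style histone name. The exception was H1f10, a linker histone whose mRNA is polyadenylated, and 2 members (H2ac14 and Hist1h2al) were annotated as pseudogenes. By location, 55 members were on chromosome 13, 10 on chromosome 3 and 1 on chromosome 6.

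There were 4 dishes in each of 2 groups. Control dishes received no exposure (0 h), and the other dishes received Opti-ELF-WMF, a pulsed extremely low frequency weak magnetic field with a peak of 100 mG and pulses of 4 ms rising from 1 to 8 Hz, for 1 h. Control cells came from the same batch of culture as exposed cells but were kept in another incubator of the same model, so the field and the incubator cannot be told apart. The libraries were stranded and made from poly(A)-selected mRNA. Values are TPM, a measure of transcript abundance in which reads are corrected for gene length and each dish is scaled to 1 fixed total. TPM can therefore be compared between genes, but it keeps no sequencing depth, so the counting error behind each value is unknown. Control dish 1 stood apart from the other control dishes in the summed level of these genes, so the sums and the fold changes that move most without it are also given without it.

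Replication-dependent histones package newly made DNA and are produced mainly in S phase. Their genes lie in clusters, usually lack introns, and exist in many near-identical copies. Most of their mRNAs have no poly(A) tail and end just after a short stem-loop, which is bound by SLBP and cut with the help of the U7 small nuclear ribonucleoprotein. Some of these genes also give polyadenylated transcripts from a site further downstream. Libraries selected by poly(A) therefore sample these genes incompletely, and the values below are levels in such libraries, not the amount of histone mRNA in the cells.

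The 3′ ends are shown because they decide which of these transcripts poly(A) selection can take. GENCODE M21 transcripts were searched on their sense strand for a stem-loop of 16 bases, made of GGC, any base, CTTTT, any base, AG, any base and GCC in that order, and for a poly(A) signal (AATAAA or ATTAAA) in their last 40 bases. The stem-loop letters were present in 38 of the 66 members and in 0.0346% of all 141767 transcripts. Of these 38 members, 24 held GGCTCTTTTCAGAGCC, 5 held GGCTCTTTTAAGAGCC and 1 (H2ac20) held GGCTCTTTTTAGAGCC. In H4 genes the stem pairs differed, with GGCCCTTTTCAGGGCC in 6 members and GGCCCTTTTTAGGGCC in the other 2 (H4c9 and H4c14). An example of each form follows, with the stem-loop in capitals, read 5′ to 3′ from GENCODE M21.
H1f2: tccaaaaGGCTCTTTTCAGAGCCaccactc
H2bc12: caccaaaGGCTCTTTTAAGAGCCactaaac
H2ac20: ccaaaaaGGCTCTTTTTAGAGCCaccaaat
H4c8: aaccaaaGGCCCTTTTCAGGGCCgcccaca
H4c9: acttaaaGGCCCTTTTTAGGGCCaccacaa

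On GRCm38 these stretches lie at chr13:23739505-23739534 (plus strand) for H1f2, chr13:22036293-22036322 (plus) for H2bc12, chr3:96220411-96220440 (minus) for H2ac20, chr13:23531451-23531480 (plus) for H4c8 and chr13:22040959-22040988 (minus) for H4c9. H2ac18 and H2ac19, neighbouring H2A genes on opposite strands, had the same 30 bases around the stem-loop. They are printed because these 2 genes recur in the results on spread, at chr3:96246025-96246054 (plus) and chr3:96239777-96239806 (minus).
H2ac18: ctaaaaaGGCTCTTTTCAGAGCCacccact
H2ac19: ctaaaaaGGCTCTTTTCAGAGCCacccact

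A poly(A) signal lay near the annotated end of 14 members, and 32.6% of all transcripts had such a signal. The last 30 bases of 3 of the more abundant genes among the 14 are given with the signal in capitals.
H1f2: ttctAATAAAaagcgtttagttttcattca
H4c9: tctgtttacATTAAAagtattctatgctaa
H2bc21: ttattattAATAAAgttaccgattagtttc

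These ends lie at chr13:23740338-23740367 (plus) for H1f2, chr13:22040636-22040665 (minus) for H4c9 and chr3:96223709-96223738 (plus) for H2bc21. The annotated H1f2 transcript ran 840 bases past its stem-loop, and that of H4c9 330 bases. In the model of H2bc21, 2620 bases long, the stem-loop letters were not found. The absence of letters from a model says only that they are not in the annotated sequence, since 11 members had models that ended with the coding sequence.

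Most members were near the lower end of the measurable range. Mean TPM over the 8 dishes was under 1 for 46 of 66 members, from 1 to 5 for 14, from 5 to 20 for 4, and above 20 only for H2bc4 (43.7) and H1f2 (31.7). The median of the members' mean TPM was 0.519, beside 21.9 over all 12122 genes that were tested. A gene was tested if 4 or more dishes had 1 TPM or more, which 20 members passed and 46 did not. All 8 dishes had a value above 0 for 35 members, some dishes for 29, and none for 2 (H2bc1 and Hist1h2al). The untested members had mean TPM up to 1.04, which was the mean of H2bc13.

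The annotated 3′ end separated the levels only weakly. Members with both a stem-loop and a poly(A) signal (8 genes) had a median mean TPM of 0.959, and 4 of them were tested. The median was 0.412 for the 30 members with a stem-loop only, 0.448 for the 6 with a poly(A) signal only, and 0.566 for the 22 with neither. The most abundant member, H2bc4, had neither in its annotated model, which has 2 exons and spans chr13:23684199-23692908 (plus strand). These groups were compared as a description, with no test, and each spanned at least the range from 0.148 to 7.00.

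**Figure D1:**
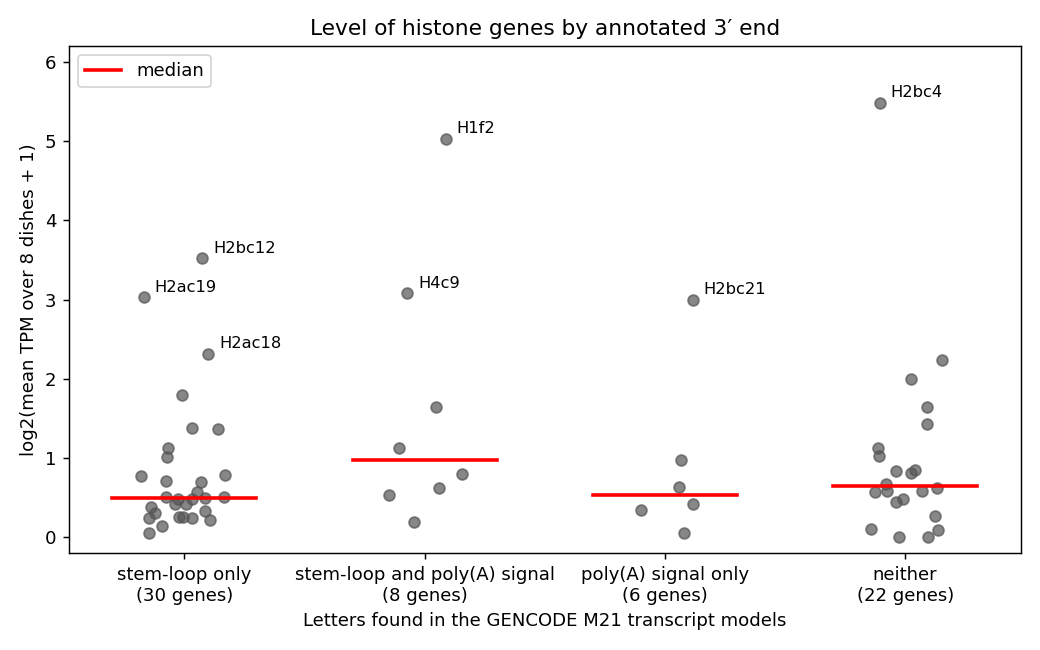
Level of each of the 66 histone genes, as log2(mean TPM over 8 dishes + 1), grouped by the letters found in its GENCODE M21 transcripts, with 1 point per gene and the group median as a red line. The medians lie close together, while H2bc4, H1f2, H2bc21 and H2bc12 are the highest of their groups.

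The stem-loop letters also occurred in 9 genes outside the members. H2ax, a histone variant of the DNA damage response known to be made from both kinds of transcript, had a mean TPM of 115 (107 to 125 over the 8 dishes), above every member. H2aw, listed as Hist3h2a in GENCODE M21, had 6.04 (5.49 to 6.90). The remaining 7 had means of 0.907 or less.

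Among linker histones (class H1, 6 genes), which bind DNA between nucleosomes, H1f2 accounted for nearly all of the signal. H1f2 TPM was 32.8, 29.9, 29.6 and 31.2 in control dishes 1 to 4 and 34.1, 33.8, 31.4 and 30.8 in exposed dishes 1 to 4. The groups overlapped, and the values stayed close together in all 8 dishes. The other H1 genes had mean TPM of 0.49 or less and were not tested: H1f5 ranged from 0.36 to 0.67, H1f1 from 0.09 to 1.02, and H1f10 from 0.00 to 0.09.

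Among H2A genes, which encode a core histone that pairs with H2B, 6 of 19 were tested. H2ac19 TPM was 5.25, 8.43, 6.78 and 7.09 in control dishes and 6.45, 8.69, 7.62 and 7.14 in exposed dishes. Its neighbour H2ac18 had 8.93, 3.79, 2.82 and 3.25 in control dishes and 3.49, 0.39, 2.82 and 6.39 in exposed dishes. These 2 genes ran in opposite order at their extremes, since H2ac18 was highest in control dish 1, where H2ac19 was lowest, and lowest in exposed dish 2, where H2ac19 was highest. Their sum was 14.2, 12.2, 9.60 and 10.3 in control dishes and 9.94, 9.08, 10.4 and 13.5 in exposed dishes. Its between-dish SD on the log2(TPM + 1) scale was 0.23, compared with 0.84 for H2ac18 and 0.21 for H2ac19 alone.

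The remaining tested H2A genes varied widely between dishes of the same group. H2ac12 TPM was 5.50, 0.22, 1.43 and 0.95 in control dishes and 0.88, 2.73, 2.05 and 3.15 in exposed dishes, so that the highest and the lowest value were both in the control group. Hist1h2ap had 4.17, 2.10, 1.55 and 1.32 in control dishes and 0.00, 1.92, 1.64 and 0.00 in exposed dishes. It was thus listed at 0 in exposed dishes 1 and 4, while exposed dishes 2 and 3 lay within the control range. H2ac8 was steadier, at 0.88, 0.81, 0.99 and 1.14 in control dishes and 1.33, 1.34, 1.05 and 1.90 in exposed dishes, with only exposed dish 3 inside the control range. H2ac10 ranged from 0.59 to 2.53, and H2ac13, just below the filter with a mean of 0.802, ranged from 0.00 to 3.05.

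H2B, the partner of H2A, contributed the largest class sum, and 5 of its 17 genes were tested. H2bc4 TPM was 41.7, 42.4, 40.4 and 41.7 in control dishes and 43.9, 51.3, 43.1 and 44.9 in exposed dishes. Every exposed dish was above every control dish, with exposed dish 2 well above the other 3. H2bc12 had 12.8, 2.88, 14.4 and 12.4 in control dishes and 12.4, 10.6, 11.2 and 7.18 in exposed dishes, with control dish 2 far below all others. H2bc13, untested, was 3.96 in that dish and 0.55 or less in the other control dishes. H2bc21 was the most even of the tested members, at 7.42, 7.07, 7.42 and 7.26 in control dishes and 6.22, 7.18, 6.62 and 6.82 in exposed dishes. H2bc8 ranged from 0.88 to 2.61 and H2bc9 from 0.89 to 1.60.

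H3 and H4 form the tetramer at the centre of the nucleosome. Of 12 H3 genes, 3 were tested. H3c8 TPM was 3.28, 4.56, 2.20 and 3.08 in control dishes and 2.63, 3.32, 3.57 and 1.37 in exposed dishes. H3c10 had 5.00, 0.00, 1.29 and 0.00 in control dishes and 0.00, 0.00, 1.96 and 1.20 in exposed dishes, so it was listed at 0 in 4 of 8 dishes and reached its highest value in control dish 1. H3c2, which passed the filter with a mean of 1.02, ranged from 0.42 to 1.69.

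Of 12 H4 genes, 5 were tested, and none was at 0 in any dish. H4c9 TPM was 7.46, 7.82, 5.63 and 8.95 in control dishes and 6.64, 8.31, 8.62 and 6.22 in exposed dishes. H4c12 had 4.01, 3.43, 4.07 and 2.56 in control dishes and 3.67, 3.91, 4.89 and 3.27 in exposed dishes. For both genes the groups overlapped. H4c8 had 1.83, 2.11, 0.90 and 1.68 in control dishes and 3.31, 1.37, 3.45 and 2.31 in exposed dishes, with exposed dish 2 inside the control range and the other 3 above it. Hist1h4n ranged from 1.28 to 3.82, and H4c11, which passed the filter with a mean of only 0.968, from 0.33 to 1.58.

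**Figure D2:**
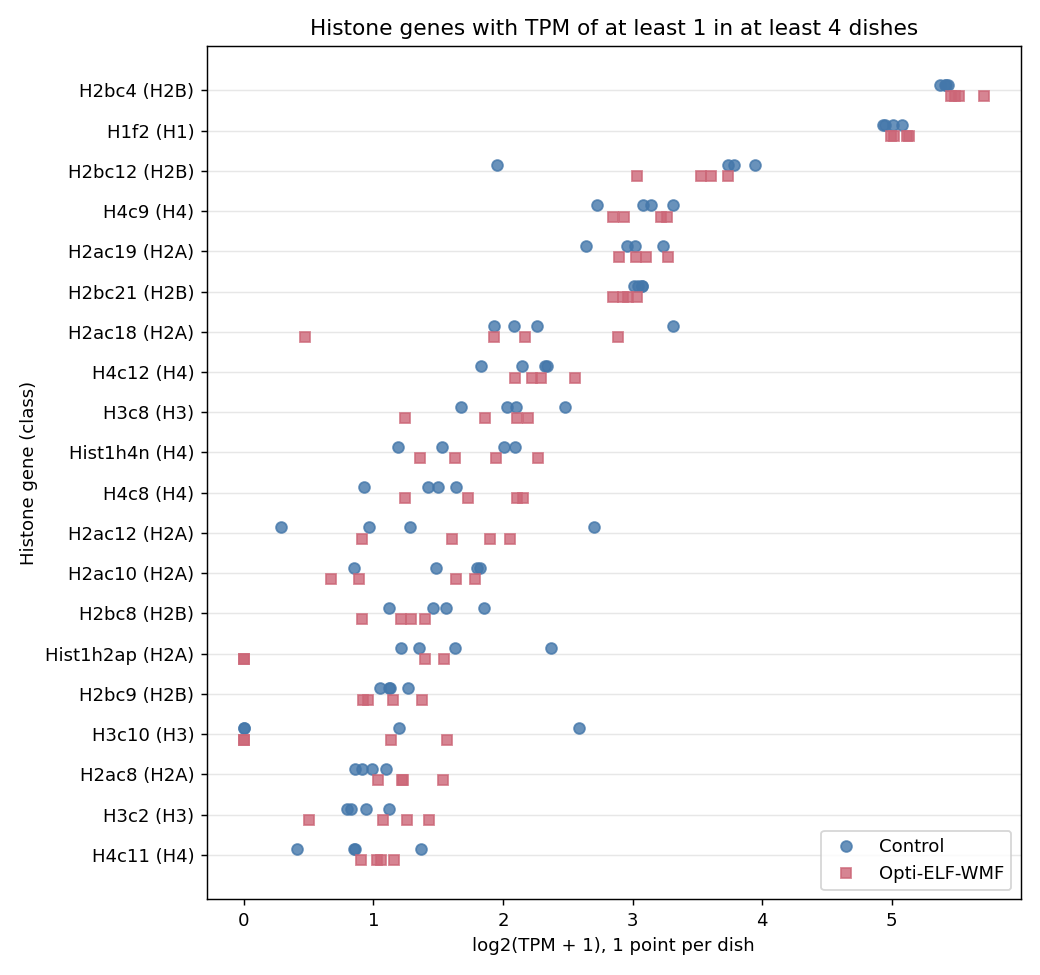
Values of the 20 tested histone genes in each dish, as log2(TPM + 1), with circles for the 4 control dishes and squares for the 4 Opti-ELF-WMF dishes, ordered by mean TPM. H2bc4 is the only gene whose groups do not overlap, and H2bc12, H2ac18, H2ac12, Hist1h2ap and H3c10 spread over a wide range within a group.

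Summed over all 66 members, TPM was 171, 145, 143 and 146 in control dishes 1 to 4 (151 ± 13.2, mean ± SD, n = 4) and 156, 161, 150 and 154 in exposed dishes 1 to 4 (155 ± 4.59, n = 4). Exposed dishes were thus 3.83 TPM higher on average, less than the SD between control dishes, and the groups overlapped. Control dish 1 stood apart from the other control dishes, and without it the difference was 10.4 TPM and the groups no longer overlapped. It was 1.16 TPM without control dish 3. The members made up 0.0143% to 0.0171% of all TPM in a dish. H2bc4 and H1f2 together gave 43.5% to 52.8% of the members' sum.

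The gap between control dish 1 and the other control dishes lay mainly in members other than H2bc4 and H1f2. The 46 members with mean TPM under 1 summed to 19.5 in control dish 1 and 18.5, 16.3 and 14.7 in the others. Without H2bc4 and H1f2, the sum of the remaining 64 members was 96.5 in control dish 1, 72.5 to 73.4 in the other control dishes, and 75.8 to 78.0 in exposed dishes. Exposed dishes were lower by an average of 2.07 TPM with control dish 1 and 3.80 TPM higher without it. The highest value among the 8 dishes was in control dish 1 for 6 of the 20 tested members, and in no more than 4 for any other dish. By class, sums were 32.4 ± 1.93 TPM in control and 33.8 ± 1.61 in exposed dishes for H1, 23.1 ± 5.74 and 22.4 ± 3.78 for H2A, and 67.8 ± 2.58 and 70.0 ± 4.76 for H2B (SD, n = 4 each). For H3 they were 10.7 ± 3.27 and 8.83 ± 1.40, and for H4 17.3 ± 1.78 and 20.1 ± 1.50. The groups overlapped in all 5 classes. Without control dish 1, the control mean was 20.4 ± 1.93 for H2A (SD, n = 3), so that the difference changed from -0.722 to 2.04 TPM, and 9.20 ± 1.63 for H3, where it went from -1.87 to -0.376 TPM. It was then 2.32 TPM for H1, 2.99 for H2B and 3.41 for H4. The H4 difference of 2.78 TPM was, with all 8 dishes, the only class difference above both SDs, and exposed dish 4 (18.1) lay below control dishes 1 (19.2) and 4 (18.4).

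**Figure D3:**
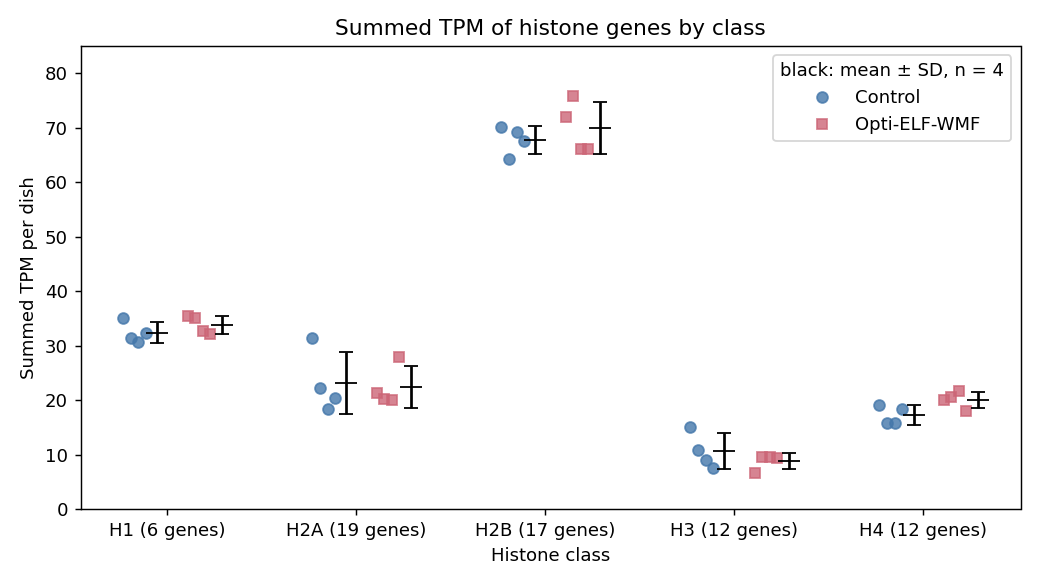
Summed TPM of the histone genes of each class in each dish, with circles for control and squares for Opti-ELF-WMF dishes and the mean ± SD (n = 4) in black beside them. The groups overlap in every class, and control dish 1 is the highest control dish in all 5, with the widest gaps for H2A (31.4) and H3 (15.2).

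Spread between dishes was measured as the residual SD of log2(TPM + 1) in the limma fit, divided by the SD that the trend over all genes gives at the same mean level. A ratio above 1 means more spread than is usual at that level. The ratio was above 1 for 17 of the 20 tested members, beside 52.9% of all tested genes, and its median was 2.06 for the members and 1.03 for all tested genes. It was largest for H2bc12 (7.39), H2ac18 (6.10), H3c10 (4.96), H2ac12 (4.73) and Hist1h2ap (3.80). The most abundant members, H2bc4 (1.41) and H1f2 (1.07), were closer to the trend. H2bc21 (0.54), H2bc9 (0.86) and H2ac8 (0.87) were below it.

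The residual SD on the log2(TPM + 1) scale was 0.09 for the sum of all members, 0.07 for H1, 0.08 for H2B, 0.12 for H4, 0.27 for H2A and 0.32 for H3. It was 0.07 for H1f2, the only tested H1 gene, and up to 1.04 for single genes, in H3c10. TPM does not tell how much of the spread is counting error.

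Near-identical copies were counted in the annotation, because the software has to divide reads that fit several genes. For each member, the share of 150-base windows of its transcripts found in no other gene's transcripts was computed. No window was unique for 2 members (H2ac19 and H3c14), under 50% were unique for 22, and all were unique for 14. H2ac19 shared windows with H2ac18 alone among the members, whereas H2bc12 (39.1% unique) shared windows with 10 other members. The 9 tested members with under 50% unique windows had a median spread ratio of 3.80 (1.62 to 7.39), and the 11 with at least 50% had 1.43 (0.54 to 2.62). The former also had shorter transcripts, 312 to 586 bases for the longest model of each gene compared with 470 to 2620, and mean TPM of 1.18 to 10.5 compared with 0.968 to 43.7. The part of shared sequence, length and level in the spread was not tested.

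**Figure D4:**
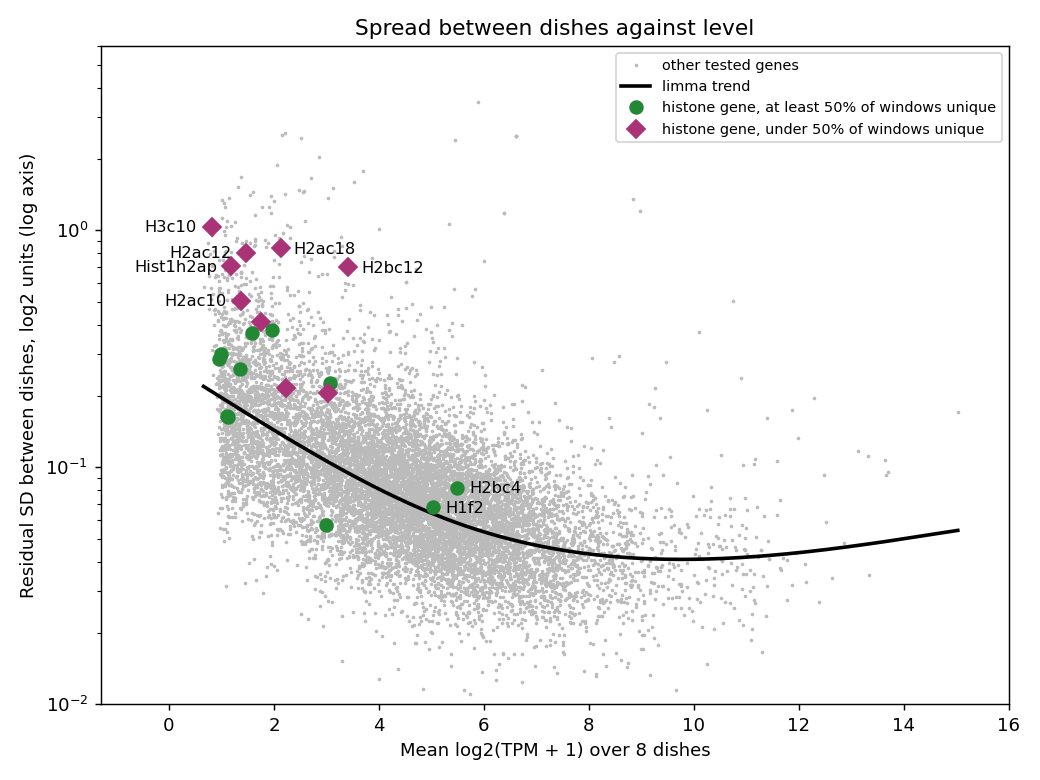
Residual SD between dishes of each tested gene (log axis, log2 units) against its mean log2(TPM + 1) over 8 dishes, with all other tested genes in grey, the limma trend as a line, and the 20 histone genes marked by whether under 50% (diamonds) or at least 50% (circles) of their 150-base windows are unique. All 9 diamonds and 8 of 11 circles lie above the trend.

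For the effect of Opti-ELF-WMF, the question was whether the level of these genes differed between exposed and control dishes, with limma run on log2(TPM + 1) over all 12122 tested genes. No member had a Benjamini-Hochberg adjusted p-value under 0.05, and nor did any other gene (0% of those tested). An unadjusted p-value under 0.05 was found for 3 of 20 tested members, 2 higher and 1 lower in exposed dishes, beside 15.6% of all tested genes (12% higher and 3.65% lower). These were H2bc4, H2ac8 and Hist1h2ap, and their share of the members was near that background. A log2 fold change above 0 was found for 12 of 20 members, beside 63.7% of all tested genes. The median log2 fold change was 0.08 for the members and 0.03 for all tested genes.

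H2bc4 was higher in exposed dishes, with a log2 fold change of 0.13 ± 0.05 (SE) and a limma adjusted p of 0.253. It was the only tested member whose groups did not overlap, beside 9.87% of all tested genes, and its groups did overlap after median-of-ratios and upper-quartile scaling. Without exposed dish 2, which held its highest value, the log2 fold change was 0.08. The unadjusted limma p-value of H2bc4 was above 0.05 without control dish 3 and without control dish 4. H2ac8 was higher by 0.29 ± 0.12 on the log2 scale (limma adjusted p = 0.297). When single dishes were left out, its unadjusted p-value stayed under 0.05 only without control dish 4 or exposed dish 3. Hist1h2ap was lower, at -0.91 ± 0.40 (limma adjusted p = 0.316). The Hist1h2ap value rests on exposed dishes 1 and 4, in which it was listed at 0, and on control dish 1, its highest value. Leaving out any of these 3 gave -0.66, with an unadjusted p-value above 0.05. The Hist1h2ap p-value was also above 0.05 without control dish 2 or 3. The same held with the replicate number as a block, without the limma trend and without the filter. Without exposed dish 1, and likewise without exposed dish 4, the only member with an unadjusted p-value under 0.05 was H2bc4.

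The remaining named members with the smallest p-values did not pass even unadjusted. H4c8 had a log2 fold change of 0.44 ± 0.22 (limma adjusted p = 0.376), H1f2 0.07 ± 0.05 (0.499) and H4c12 0.13 ± 0.13 (0.695). Toward lower values were H2bc21 at -0.11 ± 0.06 (limma adjusted p = 0.402), H2bc8 at -0.29 ± 0.16 (0.433), H3c8 at -0.22 ± 0.22 (0.695) and H2ac18 at -0.53 ± 0.47 (0.643). Single dishes moved the latter 2: H2ac18 was at -0.23 without control dish 1 and -0.070 without exposed dish 2, and H3c8 at -0.083 without control dish 2 and -0.015 without exposed dish 4. For the members with the largest spread the standard error was close to or above the fold change: H2bc12 0.12 ± 0.39, H2ac12 0.31 ± 0.45 and H3c10 -0.27 ± 0.59. The same held for H4c9 (0.00 ± 0.13), Hist1h4n (0.10 ± 0.24), H2ac19 (0.11 ± 0.12), H3c2 (0.14 ± 0.19) and H4c11 (0.17 ± 0.18). Without control dish 1, H2ac12 was at 0.77 and H3c10 at 0.28, and H2bc12 was at -0.35 without control dish 2. Of these values, those of H2ac12 and H2bc12 had an unadjusted limma p-value under 0.05. The fold changes are on the log2(TPM + 1) scale and understate those of genes near or below 1 TPM.

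These values depend on how the dishes are scaled. Mitochondrially encoded transcripts summed to 89403 ± 3357 TPM in control and 70382 ± 7645 in exposed dishes (SD, n = 4), and since TPM has a fixed total, a lower share of some transcripts raises all others. Among all genes whose unadjusted p-value was under 0.05, the share higher in exposed dishes was 76.6% on the TPM scale, compared with 47.1% after median-of-ratios scaling, 42.3% after upper-quartile scaling and 50.7% after rescaling without mitochondrial genes. After median-of-ratios scaling 4 members had an unadjusted p-value under 0.05, H2bc4 and H2ac8 higher and H2bc21 and Hist1h2ap lower. Over all 12122 tested genes, 673 were then higher and 755 lower at that threshold. Under the other 2 settings no member was higher with an unadjusted p-value under 0.05, and 2 were lower (H2bc21 and Hist1h2ap). Over all genes, 588 of 12122 were higher and 801 lower after upper-quartile scaling, and 693 of 12107 higher and 675 lower without mitochondrial genes. For H2bc4, log2 fold changes were then 0.10 under both of these settings (limma adjusted p = 0.453 for each), and its unadjusted p-value was above 0.05. The difference in the members' summed TPM fell to 0.635, 0.201 and 0.713 TPM under the 3 scalings. The counts over all genes given here also apply to the gene lists below under the same scalings.

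Histone genes of the replication-independent list, most of them known for polyadenylated mRNAs made outside S phase, were far more abundant in the same libraries. The 10 listed genes other than H1f10, H2ax among them, summed to 2832 ± 53.1 TPM in control and 2897 ± 25.6 in exposed dishes. In single dishes this was 16.8 to 19.9 times the sum of the members, H1f10 included among the latter. Their spread ratio was above 1 for 4 of 9 tested genes, with a median of 0.97. Of these 9, 2 were higher in exposed dishes with an unadjusted p-value under 0.05 and none lower, beside 12% and 3.65% of all tested genes. They were H3f3b, which encodes the variant H3.3, by 0.07 ± 0.02 (limma adjusted p = 0.192), and H2az1, which encodes H2A.Z, by 0.06 ± 0.03 (0.311). Under each of the 3 other scalings, none of the 9 had an unadjusted p-value under 0.05.

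The machinery that transcribes, processes and degrades histone mRNA was detected. Slbp, whose product binds the stem-loop, had 71.2, 69.1, 69.3 and 66.1 TPM in control dishes and 67.5, 67.9, 68.6 and 67.4 in exposed dishes, with a log2 fold change of -0.02 ± 0.03 (limma adjusted p = 0.774). Npat, the coactivator of histone gene transcription, ranged from 17.3 to 20.7 TPM with 0.01 ± 0.06 (0.968), and Casp8ap2, a component of the same nuclear body, from 10.4 to 13.5 TPM with 0.11 ± 0.07 (0.538). Of 22 tested genes of this list, 4 were higher and 0 lower with an unadjusted p-value under 0.05, beside 12% and 3.65% of all tested genes, and 2, 1 and 2 were higher under the 3 other scalings in the order given above. The smallest p-values were those of Snrpd3 and Snrpb, core proteins of small nuclear ribonucleoproteins, the U7 particle included. They were higher by 0.10 ± 0.03 each (limma adjusted p = 0.179 and 0.192).

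Histone chaperones and S phase genes are given because histone production is tied to both. Among 20 tested chaperones, 6 were higher and 1 lower with an unadjusted p-value under 0.05, beside 12% and 3.65% of all tested genes. The chaperones were led by Rbbp7 (0.12 ± 0.02, limma adjusted p = 0.122) and Ssrp1 (0.11 ± 0.03, 0.142). Under each of the 3 other scalings 2 chaperones were higher and 1 lower, beside the counts over all genes given above. Among 21 tested S phase genes, 14 were higher and 0 lower, beside 12% higher and 3.65% lower over all tested genes, and none passed after adjustment. Mcm3, a subunit of the replicative helicase, had 131, 129, 133 and 130 TPM in control dishes and 147, 147, 142 and 144 in exposed dishes (0.15 ± 0.02, limma adjusted p = 0.122). Pcna, the sliding clamp of DNA polymerase, had 280, 282, 279 and 286 in control dishes and 317, 311, 311 and 299 in exposed dishes (0.13 ± 0.02, 0.122). The median log2 fold change of the S phase genes was 0.10. After median-of-ratios scaling, upper-quartile scaling and rescaling without mitochondrial genes, 10, 9 and 10 of them were higher with an unadjusted p-value under 0.05. There were 1, 1 and 0 lower. Over all tested genes (12122, 12122 and 12107), 673, 588 and 693 were then higher and 755, 801 and 675 lower. The median spread ratio of the S phase genes was 0.76, compared with 2.06 for the histone members.

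Other RNAs that lack a poly(A) tail were read as a reference for what such libraries hold of them. The 184 listed genes were by number mainly small nucleolar and small nuclear RNAs. They summed to 82.7, 137, 150 and 84.7 TPM in control dishes and 77.1, 40.5, 63.1 and 116 in exposed dishes, with overlapping groups. Most of the sum in every dish came from Rn7s1, Rn7s2 and Rn7sk. Rn7s1 and Rn7s2 had the same TPM as each other in every dish, from 11.3 to 41.6. All 9 tested genes, Rn7s1 and Rn7s2 both among them, had a spread ratio above 1, with a median of 7.10. With an unadjusted p-value under 0.05, 1 was higher and 2 lower, beside 12% and 3.65% of all tested genes. After median-of-ratios scaling, upper-quartile scaling and rescaling without mitochondrial genes, 0, 0 and 1 were higher, and 2 were lower each time. Counts over all genes under these scalings are given with the S phase genes. Rn7sk, the 7SK RNA that restrains transcription elongation, had 24.1, 28.2, 27.6 and 23.2 TPM in control dishes and 16.8, 8.54, 13.4 and 20.2 in exposed dishes. Its groups did not overlap, as was the case for 9.87% of all tested genes (log2 fold change -0.82 ± 0.21, limma adjusted p = 0.133). Rmrp, the RNA of an RNase complex, ranged from 2.54 to 13.8 TPM in control and from 0.67 to 5.27 in exposed dishes (-1.33 ± 0.52, limma adjusted p = 0.252). How far residual RNA without a poly(A) tail contributed to the histone values was not tested.

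The cells were checked against marker genes. Of 10 hepatocyte markers, all were tested, and 3 were higher and 1 lower with an unadjusted p-value under 0.05, with Krt18 (0.09 ± 0.03, limma adjusted p = 0.166) and Krt8 (0.07 ± 0.02, 0.194) leading. The number higher was 0, 0 and 1 under the 3 other scalings, and over all tested genes 12% were higher and 3.65% lower on the TPM scale. The 1 lower marker was Alb, at 46.1 to 58.2 TPM (-0.15 ± 0.05, limma adjusted p = 0.210), and Hnf4a was at 180 to 218. Of 13 markers of other cell types, 4 were tested and none had an unadjusted p-value under 0.05. Their sum was 1207 to 1293 TPM in control and 1220 to 1341 in exposed dishes, nearly all of it from Krt19 (1101 to 1244), a keratin of bile duct cells, beside Krt7 (63.5 to 75.4, log2 fold change -0.06 ± 0.06, limma adjusted p = 0.683). Cd68 was at 1.05 to 2.21 (-0.19 ± 0.12, 0.474). Of the other bile duct markers, Sox9 was at 29.8 to 32.1 TPM and Epcam, untested, at 0.13 or less. The fibroblast or stellate markers Col1a1, Col1a2, Pdgfrb and Acta2, also untested, were at 1.20 or less. The macrophage marker Adgre1 and the endothelial marker Cdh5 were listed at 0 in all dishes, and Ptprc and Pecam1 were at 0.20 or less.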

How the data were processed

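RNA of 8 dishes was sequenced by the authors (TruSeq Stranded mRNA, paired reads of 150 bases). Per the submitters' processing notes, Trimmomatic 0.39, STAR 2.7.4a and RSEM 1.3.3 were used with mm10, and the annotation release is not given in the sources used here. The authors deposited TPM, 55401 genes per dish, each dish summing to 1000000, so depth is unknown and no interval or floor is given. The paper describes control and exposed cells as coming from the same batch of culture, and the sample labels name no batch. Whether all 8 dishes share 1 batch is therefore not known, and p-values measure only the spread between dishes.

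Genes with TPM of at least 1 in at least 4 dishes were tested with limma 3.58.1 (eBayes with trend, R 4.3.3) on log2(TPM + 1), with Benjamini-Hochberg adjustment over all tested genes. The fit was tested on simulated data. No set test was run. Positions and transcripts came from GENCODE M21, which matched 55141 identifiers.

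The members and lists were chosen with earlier results of these data known. Named members are the 3 most abundant of each class, the 5 lowest p-values on either side, the 5 with the largest spread ratio, and 2 on each side of the filter by mean TPM. From other lists, Slbp, Npat and Casp8ap2 and the 2 lowest p-values of every list are named, while further genes were named after their values were seen. Alternatives covered the pseudocount, filter, scaling, trend, replicate block, membership and leaving out each dish. Replicate numbers were checked for pairing: the correlation of same-numbered dishes after removing group means was -0.035, -0.042, 0.00037 and 0.026. No deviation shared by number was thus seen, but this cannot show whether the dishes were set up in pairs.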

Additional observations from a re-analysis of the deposited data

Results flagged for a closer look

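Of 100 groups of 4 dishes examined, 8 had a dish set apart. Its gap to the nearest other dish exceeded Dixon's critical share of the group's range for 4 samples. Chance flags about 1 group in 20. Single genes and sums that hold them were both examined, so the 8 flags are not independent and cannot be weighed against that rate. In control dish 1, summed TPM was 171 for all members (143 to 146 in the other control dishes), 96.5 without H2bc4 and H1f2 (72.5 to 73.4), and 8.93 for H2ac18 (2.82 to 3.79). H2bc13 was 3.96 TPM in control dish 2 and 0.00 to 0.55 in the others. Among exposed dishes, the H2A sum was 28.02 in dish 4 (at most 21.4 in the others), and the H3 sum was 6.73 in dish 1 (9.41 to 9.63). Control dish 3 was lowest for Ssrp1 (203 TPM, 211 to 213 in the others) and Snrpb (288, 306 to 308).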

How the results depend on the processing

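The number of all genes with an adjusted limma p-value under 0.05 was 0, and 1 with TPM of at least 1 in all 8 dishes, with median-of-ratios or upper-quartile scaling, or without the limma trend, and 0 to 2 when a dish was left out. No histone member was among them under any of these settings. With TPM of at least 1 in all 8 dishes, 1 of 9 tested members had an unadjusted p-value under 0.05. Among all genes under that filter it was 1835 of 11455. Leaving out a dish gave 1 to 4 members, with 1 without exposed dish 1 or 4, beside 1496 to 1963 of all 12122 tested genes. Without a filter 59 of 64 members spread above the trend, beside 64.2% of all genes in that fit. Under the stricter filter it was 8 of 9 members, beside 51.4% of all genes. The number tested differed between these settings. The 2 tested members with older symbols gave 1 member with an unadjusted p-value under 0.05, a median log2 fold change of -0.40 and 2 above the trend, while membership by GENCODE M21 names (69 genes) kept each summary on the same side. Leaving out a dish gave median fold changes of -0.01 to 0.12 and differences in summed TPM of 1.16 to 10.4.

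The sign changed for 6 named genes, none of them called by adjusted p-value. Of these, H2bc12 had an unadjusted limma p-value under 0.05 without control dish 2, where its sign changed. H2ac12 had one without control dish 1, where its sign stayed positive. H4c9 had -0.025, -0.028 and -0.025 and Npat -0.020, -0.024 and -0.020 under median-of-ratios scaling, upper-quartile scaling and rescaling without mitochondrial genes. When dishes were left out, log2 fold changes ranged from -0.030 to 0.77 for H2ac12, -0.35 to 0.32 for H2bc12, -0.58 to 0.28 for H3c10, -0.11 to 0.084 for H4c9, -0.076 to 0.24 for Hist1h4n and -0.016 to 0.066 for Npat. The causes were not tested. With the replicate number as a block, 0 genes had an adjusted p-value under 0.05 and 2 members an unadjusted one (H2bc4 and H2ac8), in place of 3. Over all 12122 tested genes, 1889 then had an unadjusted p-value under 0.05. No dish correlated best with its own number, so the block shows only a shared number. Since depth is unknown, the counting error of the 46 untested members is unknown too.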
